A study of Mus musculus with 6 samples.

Results

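The histone genes described here were the protein-coding rows of the deposited count table whose symbols follow the mouse histone naming scheme (H1f, H2a, H2b, H3c, H3f, H4c, H4f or Macroh2a). They numbered 106 of the 57010 genes in the table. By symbol, 67 were replication-dependent genes (H1f1 to H1f5 and the H2ac, H2bc, H3c and H4c genes with their cluster neighbours), 10 were variants of somatic cells and 29 were germline or other variants. Another 12 rows with such symbols had other biotypes, mostly pseudogenes, and were left out. H2bc26-ps, a pseudogene by symbol but protein-coding by biotype, stayed in the replication-dependent class and had 4 counts over the 6 libraries. H2ac1 and H2bc1, testis genes inside the cluster, also stayed in that class by symbol and had 0 counts. RNA came from RAW 264.7, an established mouse macrophage line. All cells had first been stimulated with lipopolysaccharide (LPS), a bacterial cell wall component that drives an inflammatory state. They were then given extracellular vesicles (EVs) from tendon stem cells that had been preconditioned in hypoxia (hypoxic-EV, 3 libraries) or in normoxia (normoxic-EV, 3 libraries). Each value therefore compares 2 vesicle treatments of LPS-stimulated cells of 1 line, and cells without vesicles were not analysed here. Whether the libraries of a group are separate cultures is not stated in the labels, and each p-value is read against the spread between these libraries only, which may be technical.

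Histones are the proteins that DNA is wrapped around. A nucleosome core holds H2A, H2B, H3 and H4, and H1, the linker histone, binds where DNA enters and leaves it. Replication-dependent histone genes lie mostly in clusters, have no introns and are expressed in S phase, when new DNA has to be packaged. Their mRNAs end in a conserved stem-loop in place of a poly(A) tail, and the stem-loop binding protein SLBP holds that end. Variant histones are encoded by single genes outside the clusters, most have introns and poly(A) tails, and they are made through the cell cycle. The libraries were made from RNA enriched for poly(A), per the labels' protocols. Counts of a replication-dependent gene therefore cover mainly those of its transcripts that carry a poly(A) tail or an A-rich stretch, and their share of the gene's whole mRNA was not measured.

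The stem-loops are shown because the motif was commoner in the replication-dependent class than in the variants, though neither class was uniform. The search, on the sense strand of GENCODE M21 transcripts (build GRCm38), was for GG, any 2 bases, CTT, any base, T, any base, AG, any 2 bases and CC, which is 16 letters, and each line gives the loop motif in capitals with 5 bases on each side in lower case.
H1f2: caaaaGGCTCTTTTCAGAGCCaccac
H2bc8: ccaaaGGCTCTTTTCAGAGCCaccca
H4c9: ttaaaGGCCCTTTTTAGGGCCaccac
H4c14: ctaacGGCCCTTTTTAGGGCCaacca
H4c8: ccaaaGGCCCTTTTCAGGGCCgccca
H2ax: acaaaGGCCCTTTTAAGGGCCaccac
On GRCm38 the loop of H1f2 lies on the plus strand at chr13:23739512-23739527, that of H2bc8 on the plus strand at chr13:23571843-23571858 and that of H2ax on the plus strand at chr9:44335240-44335255. The loop of H4c14 lies on the minus strand at chr3:96262939-96262954, that of H4c9 on the minus strand at chr13:22040966-22040981 and that of H4c8 on the plus strand at chr13:23531458-23531473. The motif was present in a transcript of 45 of the 67 replication-dependent genes (67.2%), 1 of the 10 somatic variants (H2ax) and 2 of the 29 germline or other variants. H2bc4 and H2bc21, replication-dependent by symbol with 1999 and 741 counts over the 6 libraries, had no match. Among 21707 protein-coding genes with a transcript in that annotation, 165 (0.760%) held it. The form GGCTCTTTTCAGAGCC was the commonest and was found in genes of the H1, H2A, H2B and H3 families. The H4 genes that matched had GGCCC or GGTCC at the 5′ side of the stem instead. A transcript model that ends before the loop gives no match, and no match says only that these letters are not in the model.

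What follows the loop differed between genes. The H2bc8 transcript runs 155 bases past its loop and holds no AATAAA, the commonest poly(A) signal, after it. The H1f2 transcript runs 840 bases past its loop and that of H4c14 runs 1257 bases, and both hold AATAAA in that stretch. A transcript of H2bc4, which had no loop match, holds AATAAA too. Among the replication-dependent genes that passed the filter on low counts, 9 of 13 had a transcript longer than 1000 bases and 8 of 13 held AATAAA anywhere. Among those that did not pass, 9 of 54 had such a transcript and 13 of 54 held AATAAA. The median longest transcript was 1560 bases in the genes that passed and 514 bases in those that did not. These counts describe the annotation, and the filter itself keeps genes with more poly(A) reads. It works on counts, so it also favours longer transcripts, and a longer sequence has more places for AATAAA. The contrasts were not adjusted for length.

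The promoters of H2bc8, the replication-dependent gene called higher in hypoxic-EV, and of H1f2, the one with the most counts, are given for 130 bases ending at the base before the transcript start (RefSeq, GRCm38.p6, plus strand). Capitals mark the octamer ATTTGCAT and the TATA box TATAAA in H2bc8, and the CCAAT box in H1f2.
H2bc8, chr13:23571270-23571399: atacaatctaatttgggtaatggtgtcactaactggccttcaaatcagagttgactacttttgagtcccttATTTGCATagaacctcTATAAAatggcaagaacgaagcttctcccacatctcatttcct
H1f2, chr13:23738677-23738806: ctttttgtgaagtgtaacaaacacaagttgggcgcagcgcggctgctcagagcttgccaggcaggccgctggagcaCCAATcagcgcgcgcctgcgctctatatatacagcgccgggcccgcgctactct
The octamer of H2bc8 began 59 bases and its TATA box 43 bases before the start, and the CCAAT box of H1f2 began 54 bases before the start. Promoter windows of 300 bases (250 before and 50 after the start) were listed for 95 of the 106 histone genes and were searched on both strands. CCAAT was found in 49 of 57 replication-dependent promoters (86.0%), in 6 of 9 somatic variant promoters (66.7%) and in 37.4% of all 32851 promoters. TATAAA was found in 34 of 57 replication-dependent promoters (59.6%), in 1 of 9 somatic variant promoters (11.1%) and in 13.6% of all. ATTTGCAT, which the transcription factor OCT1 binds in H2B promoters, was found in 6 of 14 replication-dependent H2B promoters (42.9%). It was found in 6 of the 43 other replication-dependent ones (13.95%), in 1 of 9 somatic variant promoters (11.1%) and in 1.74% of all. A match is a description of the letters and not evidence of binding in these cells.

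Library totals ran from 16751665 to 23422328 counts, and 13303 genes passed the filter. Values below are TMM-scaled CPM, counts per 1e6 counts of the scaled library. A gene at 0 in a library could have had up to 3 counts there, or 0.129 to 0.179 CPM by library, from counting error alone. No count was recorded for 39 histone genes, of which 13 were replication-dependent and 26 germline or other variants. Another 46 had counts but did not pass the filter, and 21 were tested. These were 13 of the 67 replication-dependent genes, 8 of the 10 somatic variants and 0 of the 29 germline or other variants. The 10 somatic variants held 202189 counts over the 6 libraries, the 67 replication-dependent genes 9024 and the 29 germline or other variants 19. The 41 replication-dependent genes that had counts but did not pass had between 1 and 59 counts each. The germline or other variants with any count were H1f8, the oocyte linker histone, with 14, H3f4 with 3 and H1f6, a testis linker histone, with 2. Of the 67 replication-dependent genes, 53 lie on chromosome 13, where mouse has its main histone cluster, and 10 of those were tested. Reads of near-identical cluster genes cannot be assigned with certainty, because no source used here states how multi-mapping reads were treated.

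**Figure D1:**
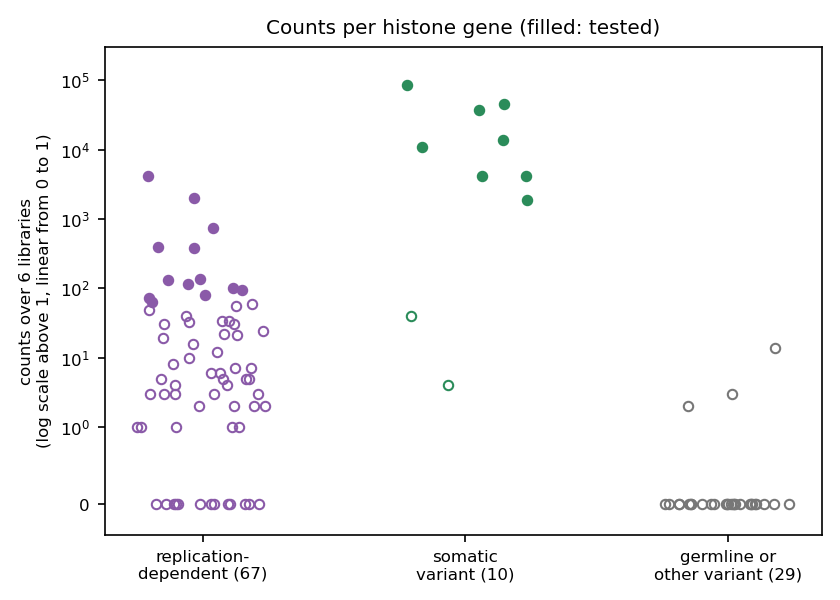
Counts per histone gene summed over 6 libraries (vertical axis, log scale above 1 and linear between 0 and 1), by class, with 1 point per gene, filled where the gene was tested. The 8 tested somatic variants lie above the replication-dependent genes other than H1f2 and H2bc4, and most germline or other variants lie at 0.

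Of the 21 tested histone genes, 12 were called at an adjusted p under 0.05 by edgeR's quasi-likelihood test, 5 higher and 7 lower in hypoxic-EV. Over all genes tested 44.2% were called, 22.7% higher and 21.5% lower, and over the tested protein-coding genes 47.5% were called. Among the somatic variants 7 of 8 were called, with H2ax, H2az1, H2az2 and Macroh2a1 higher and H1f0, H2aj and H3f3a lower. Among the replication-dependent genes 5 of 13 were called, with H2bc8 higher and H1f2, H2bc4, H2bc6 and H4c14 lower. The median log2 fold change was 0.07 over the somatic variants, -0.36 over the replication-dependent genes and -0.0011 over all genes tested. The classes differed in depth, with a median SE of the log2 fold change of 0.047 for the somatic variants and 0.309 for the replication-dependent genes, so a difference between them in the share called cannot be told apart from depth. CPM of the groups did not overlap for 13 of the 21 histone genes, against 52.8% of all genes tested. In RNA from whole cultures, fewer cells that express a gene and less of its RNA per cell cannot be told apart.

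**Figure D2:**
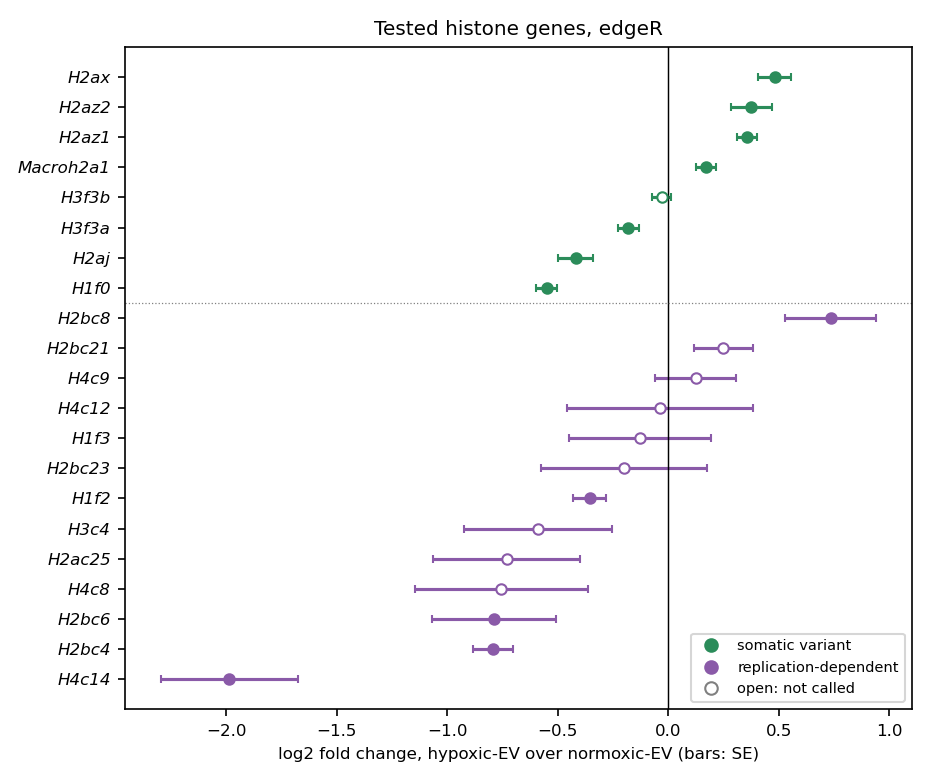
Log2 fold change (horizontal axis, hypoxic-EV over normoxic-EV, bars SE of the fit over 3 against 3 libraries) of the 21 tested histone genes, somatic variants above and replication-dependent genes below the dotted line. Filled points were called. The somatic variants run from -0.55 (H1f0) to 0.48 (H2ax) and the replication-dependent genes from -1.99 (H4c14) to 0.74 (H2bc8).

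The linker histone genes were lower in hypoxic-EV where a call was made. H1f0 encodes H1.0, the variant linker histone found mainly in differentiated or resting cells (chr15:78912650-78914704 on GRCm39, the build of all gene positions that follow). It had 76.1, 76.1 and 73.9 CPM in the hypoxic-EV libraries, against 110.7, 110.5 and 109.9 CPM in the normoxic-EV libraries. The 3 hypoxic-EV libraries lay well below all 3 normoxic-EV libraries, and within each group the libraries were close together. Its log2 fold change was -0.55 ± 0.048 (SE, n = 3 each), with an adjusted p of 7.64e-09 by edgeR's quasi-likelihood test, a level 1.46-fold lower. H1f2, which encodes the replication-dependent linker histone H1.2 (chr13:23922791-23924350), had 31.9, 32.3 and 30.4 CPM in the hypoxic-EV libraries, against 43.0, 43.1 and 35.3 CPM in the normoxic-EV libraries. The groups did not overlap, although normoxic-EV replicate 3 stood closer to hypoxic-EV than its fellows. The log2 fold change was -0.36 ± 0.076 (SE, edgeR adjusted p = 0.000682). H1f3, a sister gene in the cluster, had between 14 and 29 counts per library, its groups overlapped, and its log2 fold change of -0.13 ± 0.321 was not called (edgeR adjusted p = 0.777). Per length, H1f0 held most of the FPKM of the 3 tested H1 genes, 64.3% ± 0.399 in hypoxic-EV and 67.4% ± 2.38 in normoxic-EV (SD, n = 3 each). H1f10, the other somatic linker variant, had 0, 1 and 3 counts in the hypoxic-EV libraries, against 0 in each normoxic-EV library, too few to compare.

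The variants of H2A moved in both directions. H2az1 and H2az2 encode H2A.Z, a variant placed in nucleosomes beside transcription start sites by exchange complexes. H2az1 (chr3:137570248-137572683) had 365, 347 and 372 CPM in the hypoxic-EV libraries, against 291, 282 and 274 CPM in the normoxic-EV libraries. Every hypoxic-EV library was above every normoxic-EV library, and the log2 fold change was 0.36 ± 0.046 (SE, edgeR adjusted p = 2.1e-06). H2az2 (chr11:6377229-6394443) had 19.8, 16.79 and 18.7 CPM in the hypoxic-EV libraries, against 15.3, 14.3 and 13.2 CPM in the normoxic-EV libraries. Its groups did not overlap either, and its log2 fold change was 0.38 ± 0.092 (SE, edgeR adjusted p = 0.0023). Per length, H2az1 made up 94.7% ± 0.296 of the H2A.Z FPKM in hypoxic-EV and 94.8% ± 0.229 in normoxic-EV (SD, n = 3 each), so the balance of the pair was alike in both groups within the spread.

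H2ax encodes H2A.X, the variant that is phosphorylated around DNA double-strand breaks (chr9:44245991-44247374). It had 44.6, 37.2 and 42.2 CPM in the hypoxic-EV libraries, against 31.3, 27.8 and 29.5 CPM in the normoxic-EV libraries. All hypoxic-EV libraries were higher, and the log2 fold change was 0.48 ± 0.075 (SE, edgeR adjusted p = 2.05e-05). Its mRNA is known in a stem-loop form and in a polyadenylated form, and its transcript runs 822 bases past the loop printed above. Macroh2a1 encodes macroH2A1, which carries an added macro domain and is known from inactive chromatin (chr13:56221432-56284174). It had 124.7, 122 and 124.8 CPM in the hypoxic-EV libraries, against 110.1, 112 and 108 CPM in the normoxic-EV libraries, again without overlap. The log2 fold change was small, at 0.17 ± 0.046 (SE, edgeR adjusted p = 0.00508).

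H2aj was the one somatic H2A variant that fell. It encodes H2A.J, known in human fibroblasts for its build-up in senescence (chr6:136785242-136787072). It had 33.6, 27.8 and 30.4 CPM in the hypoxic-EV libraries, against 43.9, 41.9 and 37.1 CPM in the normoxic-EV libraries. The groups did not overlap, and the log2 fold change was -0.42 ± 0.078 (SE, edgeR adjusted p = 0.000171). As a share of the FPKM of the 6 somatic H2A variants, H2aj took 5.97% ± 0.380 in hypoxic-EV and 9.81% ± 0.519 in normoxic-EV. The share of H2az1 was 72.8% ± 0.985 in hypoxic-EV and 69.8% ± 0.397 in normoxic-EV, and that of H2ax was 10.7% ± 0.570 in hypoxic-EV and 9.37% ± 0.473 in normoxic-EV (SD, n = 3 each). Macroh2a2, the paralog of Macroh2a1, had 10, 7 and 2 counts in the hypoxic-EV libraries, against 5, 8 and 8 in the normoxic-EV libraries, and did not pass the filter. Of the 18 replication-dependent H2A genes 1 was tested, H2ac25 (chr11:58845511-58847656), which lies outside the main cluster. It had 0.590, 0.459 and 0.775 CPM in the hypoxic-EV libraries, against 0.718, 1.28 and 1.07 CPM in the normoxic-EV libraries. Its groups overlapped and its log2 fold change of -0.73 ± 0.332 was not called (SE, edgeR adjusted p = 0.0809). H2ac25 overlaps Trim17 on the same strand, whose counts came to 21.1% of its own.

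The H3.3 genes H3f3a and H3f3b encode the same protein, the H3 variant that is placed in chromatin outside replication. H3f3b (chr11:115912738-115918788) was the somatic variant with the highest level per length. It had 738, 727 and 724 CPM in the hypoxic-EV libraries, against 747, 749 and 739 CPM in the normoxic-EV libraries. Every hypoxic-EV library was slightly below every normoxic-EV library, but the log2 fold change of -0.03 ± 0.043 was not called (SE, edgeR adjusted p = 0.618). H3f3a (chr1:180628397-180641508) had 353, 366 and 365 CPM in the hypoxic-EV libraries, against 431, 408 and 392 CPM in the normoxic-EV libraries. Its groups did not overlap, and it was lower in hypoxic-EV, the log2 fold change being -0.18 ± 0.047 (SE, edgeR adjusted p = 0.00336). Per length, H3f3b made up 70.4% ± 0.620 of the H3.3 FPKM in hypoxic-EV and 68.1% ± 0.919 in normoxic-EV (SD, n = 3 each). Of the 12 replication-dependent H3 genes 1 was tested, H3c4 (chr13:23759937-23761185), with 17, 14 and 11 counts in the hypoxic-EV libraries, against 24, 15 and 21 in the normoxic-EV libraries. Its groups overlapped and it was not called (log2 fold change -0.59 ± 0.334, SE, edgeR adjusted p = 0.162).

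**Figure D3:**
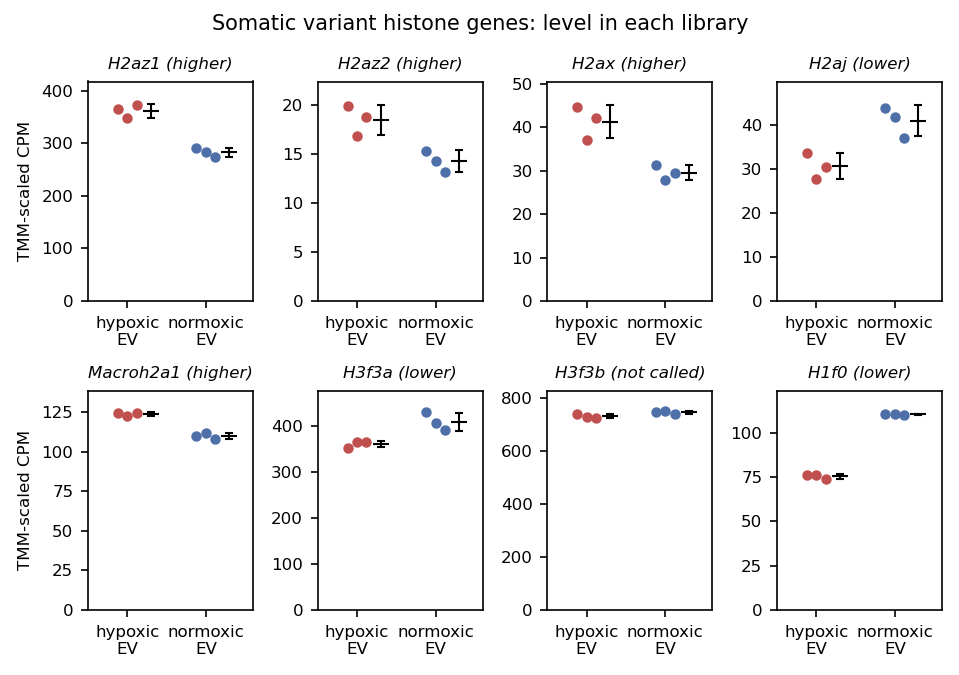
TMM-scaled CPM (vertical axes, each from 0) of the 8 tested somatic variant histone genes, 1 point per library, with the mean and SD of 3 libraries beside each group, hypoxic-EV left of normoxic-EV. No panel has overlapping groups, with H2az1, H2az2, H2ax and Macroh2a1 higher in hypoxic-EV, H2aj, H3f3a and H1f0 lower, and H3f3b lower without a call.

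Per length, the 8 tested somatic variants had the same order in both groups down to the fourth. H3f3b had 245 ± 5.25 FPKM in hypoxic-EV and 249.99 ± 1.87 FPKM in normoxic-EV, and H2az1 203 ± 8.03 FPKM in hypoxic-EV and 159 ± 4.43 FPKM in normoxic-EV. H3f3a followed with 103 ± 0.907 FPKM in hypoxic-EV and 117 ± 5.31 FPKM in normoxic-EV, and H1f0 with 36.6 ± 0.896 FPKM in hypoxic-EV and 53.6 ± 0.175 FPKM in normoxic-EV (SD, n = 3 each). Below these, H2ax came next in hypoxic-EV with 29.8 ± 3.0006 FPKM, followed by Macroh2a1 with 18.2 ± 0.334 FPKM and H2aj with 16.7 ± 1.78 FPKM, a pair that did not differ beyond its spread. In normoxic-EV, H2aj with 22.3 ± 1.87 FPKM and H2ax with 21.3 ± 1.22 FPKM stood within their spread, above Macroh2a1 with 16.2 ± 0.301 FPKM. H2az2 was the lowest in both, with 11.3 ± 1.04 FPKM in hypoxic-EV and 8.72 ± 0.645 FPKM in normoxic-EV.

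Among the replication-dependent H2B genes, 2 were lower and 1 was higher in hypoxic-EV. H2bc4, the H2B gene with the most counts (chr13:23868182-23876891), had 12.6, 13.6 and 12.01 CPM in the hypoxic-EV libraries, against 24.2, 20.2 and 21.7 CPM in the normoxic-EV libraries. Every hypoxic-EV library was far below every normoxic-EV library, and the log2 fold change was -0.79 ± 0.091 (SE, edgeR adjusted p = 4.07e-07), a level 1.73-fold lower. H2bc6 (chr13:23767653-23805107) had 14, 22 and 15 counts in the hypoxic-EV libraries, against 24, 22 and 38 in the normoxic-EV libraries, which in CPM did not overlap. It was called lower, the log2 fold change being -0.79 ± 0.282 (SE, edgeR adjusted p = 0.0277). The call was lost with DESeq2 (adjusted p = 0.146) and without hypoxic-EV replicate 1 (edgeR adjusted p = 0.0639), hypoxic-EV replicate 3 (0.145), normoxic-EV replicate 1 (0.0594) or normoxic-EV replicate 3 (0.129). H2bc6 overlaps the end of H1f4 on the same strand, whose counts came to 22.96% of its own.

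H2bc8 (chr13:23755570-23756187) was the one replication-dependent gene called higher. It had 99, 64 and 88 counts, or 5.84, 3.27 and 3.79 CPM, in the hypoxic-EV libraries, against 46, 45 and 52 counts, or 2.75, 2.63 and 2.31 CPM, in the normoxic-EV libraries. The groups did not overlap, and hypoxic-EV replicate 1 stood above its fellows. The log2 fold change was 0.74 ± 0.206 (SE, edgeR adjusted p = 0.00618), and without hypoxic-EV replicate 1 it was 0.47 and not called (edgeR adjusted p = 0.0581). H2bc21 (chr3:96128435-96131054), in the smaller cluster on chromosome 3, had 7.08, 6.53 and 7.14 CPM in the hypoxic-EV libraries, against 5.44, 6.66 and 5.42 CPM in the normoxic-EV libraries. Its groups overlapped through normoxic-EV replicate 2, and its log2 fold change of 0.25 ± 0.132 was not called (SE, edgeR adjusted p = 0.133). H2bc23 had between 6 and 20 counts per library and was not called (log2 fold change -0.20 ± 0.375, SE, edgeR adjusted p = 0.699).

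Of the 13 replication-dependent H4 genes 4 were tested, and H4c14 was the one called. H4c14 (chr3:96168998-96170627) had 7, 7 and 10 counts in the hypoxic-EV libraries, against 22, 29 and 40 in the normoxic-EV libraries. In CPM these were 0.413, 0.357 and 0.430 in the hypoxic-EV libraries, against 1.32, 1.69 and 1.78 in the normoxic-EV libraries, so each normoxic-EV library held over 3 times the level of any hypoxic-EV library. The log2 fold change was -1.99 ± 0.309 (SE, edgeR adjusted p = 2.21e-05), 3.96-fold lower and the largest change among the 21 tested histone genes. The authors' deposited table of 462 genes holds 1 histone gene, H4c14, with a log2 fold change of -1.99 and an adjusted p of 0.000235. The smallest log2 fold change in the authors' deposited table was 1.0008 in size, and no other tested histone gene reached that size in either direction.

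H4c9 (chr13:22224806-22225532) shares the loop sequence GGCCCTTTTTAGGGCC with H4c14 and with no other histone gene that matched. It had 4.25, 3.47 and 2.84 CPM in the hypoxic-EV libraries, against 3.23, 3.56 and 2.84 CPM in the normoxic-EV libraries, and the groups overlapped (log2 fold change 0.12 ± 0.184, SE, edgeR adjusted p = 0.618). H4c8 (chr13:23715220-23715689) had 10, 8 and 13 counts in the hypoxic-EV libraries, against 14, 24 and 11 in the normoxic-EV libraries. Its groups overlapped through normoxic-EV replicate 3, and its log2 fold change of -0.75 ± 0.392 was not called (SE, edgeR adjusted p = 0.127). Without normoxic-EV replicate 3 it was called lower, the log2 fold change being -1.10 (edgeR adjusted p = 0.0296). H4c12 had between 5 and 16 counts per library and was not called (log2 fold change -0.04 ± 0.42, SE, edgeR adjusted p = 0.955).

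**Figure D4:**
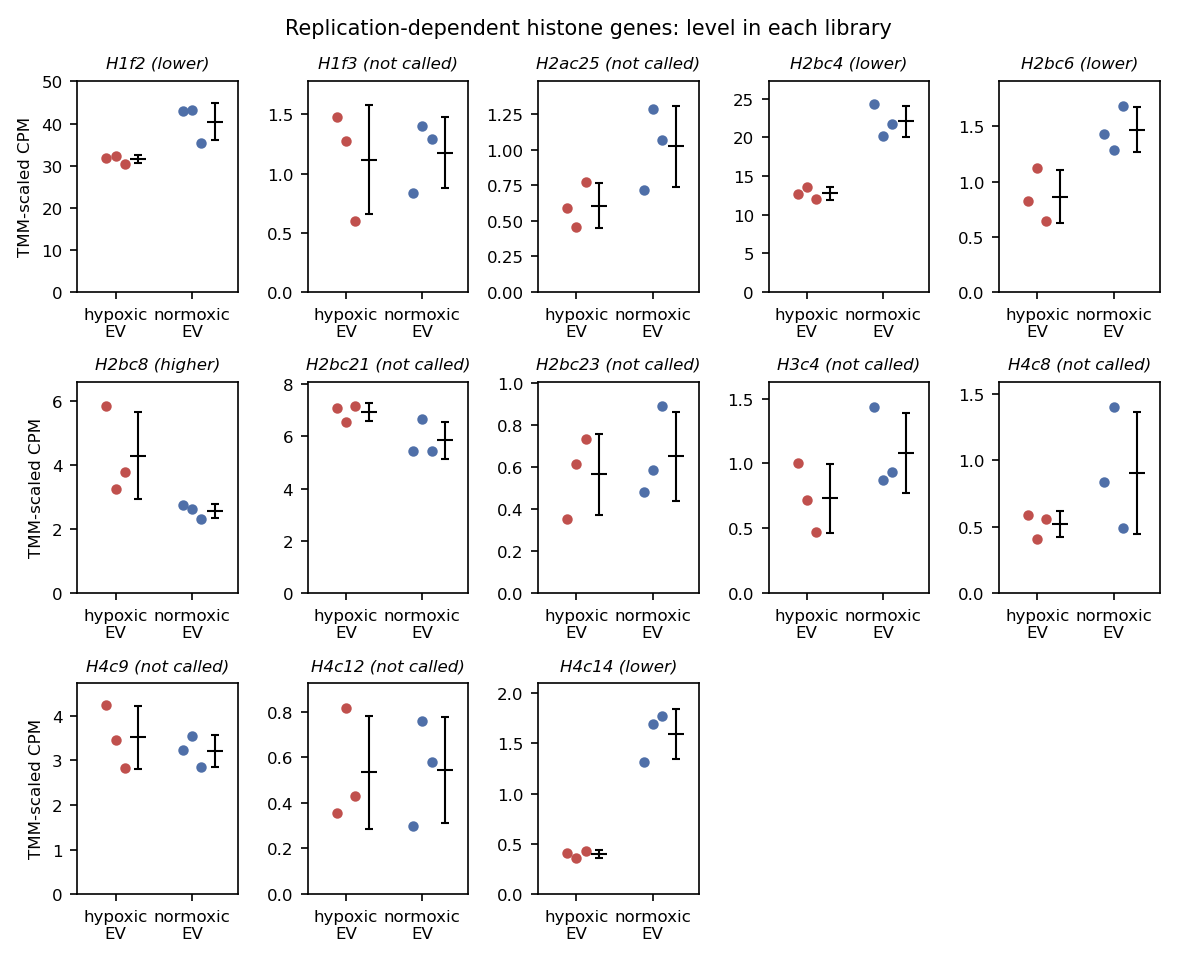
TMM-scaled CPM (vertical axes, each from 0) of the 13 tested replication-dependent histone genes, 1 point per library, with the mean and SD of 3 libraries beside each group, hypoxic-EV left of normoxic-EV. The groups stand apart for H1f2, H2bc4, H2bc6 and H4c14, lower in hypoxic-EV, and for H2bc8, higher in hypoxic-EV, and overlap for the other 8.

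Per length, H1f2 led the replication-dependent genes with 20.2 ± 0.735 FPKM in hypoxic-EV and 25.9 ± 2.84 FPKM in normoxic-EV, and H2bc4 came second with 11.004 ± 0.678 FPKM in hypoxic-EV and 19.1 ± 1.70 FPKM in normoxic-EV. H2bc8 came next in hypoxic-EV with 6.96 ± 2.29 FPKM, against 4.14 ± 0.362 FPKM in normoxic-EV, and H4c9 had 4.84 ± 1.02 FPKM in hypoxic-EV and 4.41 ± 0.498 FPKM in normoxic-EV. H2bc8 and H4c9 did not differ beyond their spread in either group. H4c14 was low in both groups, with 0.245 ± 0.0242 FPKM in hypoxic-EV and 0.978 ± 0.153 FPKM in normoxic-EV (SD, n = 3 each).

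Taken as sums, the replication-dependent genes had a lower level in hypoxic-EV and the somatic variants a like one. The 67 replication-dependent genes summed to 72.3, 69.6 and 65.0 CPM in the hypoxic-EV libraries, against 91.9, 90.0 and 82.0 CPM in the normoxic-EV libraries. The mean was 69.0 ± 3.70 CPM in hypoxic-EV and 88.0 ± 5.26 CPM in normoxic-EV (SD, n = 3 each), a log2 ratio of -0.35, and the groups did not overlap. H1f2 and H2bc4 together made up 64.2% ± 2.31 of these counts in hypoxic-EV and 71.0% ± 1.85 in normoxic-EV. H1f2 matched the loop motif and H2bc4 did not. Without H1f2 and H2bc4 the sum was 24.7 ± 2.72 CPM in hypoxic-EV and 25.4 ± 1.08 CPM in normoxic-EV. That difference was smaller than the spread. H1f2 and H2bc4 were left out after the values were seen. Each was called lower, so leaving them out narrows the gap by construction. The 54 replication-dependent genes below the filter summed to 4.65 ± 0.430 CPM in hypoxic-EV and 5.37 ± 0.723 CPM in normoxic-EV. Among those, H2ac10 had 13, 7 and 8 counts in the hypoxic-EV libraries, against 3, 1 and 2 in the normoxic-EV libraries, and H3c15 had 4, 1 and 1 counts in the hypoxic-EV libraries, against 10, 6 and 12 in the normoxic-EV libraries. Both were chosen after their values were seen, as the pair that edgeR called when no filter was used.

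By family, the summed H1 genes of the replication-dependent class had 33.1 ± 1.42 CPM in hypoxic-EV and 42.2 ± 4.58 CPM in normoxic-EV. The H2B genes had 26.4 ± 1.32 CPM in hypoxic-EV and 33.6 ± 1.48 CPM in normoxic-EV, and the H4 genes 6.03 ± 1.08 CPM in hypoxic-EV and 7.61 ± 0.587 CPM in normoxic-EV. The H2A genes had 1.91 ± 0.0605 CPM in hypoxic-EV and 2.43 ± 0.325 CPM in normoxic-EV, and the H3 genes 1.49 ± 0.308 CPM in hypoxic-EV and 2.12 ± 0.618 CPM in normoxic-EV (SD, n = 3 each). The H3 sums overlapped between the groups, and those of the other 4 families did not. Single genes, chosen after the values were seen, carried most or all of the gaps in the H1, H2A, H2B and H4 sums. Without H2bc4 the H2B sum was 13.7 ± 1.46 CPM in hypoxic-EV and 11.6 ± 0.558 CPM in normoxic-EV, the opposite direction. Without H1f2 the H1 sum was 1.61 ± 0.499 CPM in hypoxic-EV and 1.71 ± 0.404 CPM in normoxic-EV, and without H4c14 the H4 sum was 5.63 ± 1.11 CPM in hypoxic-EV and 6.02 ± 0.650 CPM in normoxic-EV, both differences smaller than the spread. Without H2ac25 the H2A sum was 1.30 ± 0.119 CPM in hypoxic-EV and 1.40 ± 0.0479 CPM in normoxic-EV, and the groups then overlapped. Without H3c4 the H3 sum was 0.761 ± 0.225 CPM in hypoxic-EV and 1.04 ± 0.352 CPM in normoxic-EV. Its log2 ratio was -0.45, against -0.51 with H3c4. H3c15, whose counts given above were lower in hypoxic-EV, was still in that sum. The H3 sum without both genes was not taken, so the remaining gap is not shown to be spread over the family. The somatic variants summed to 1743 ± 19.2 CPM in hypoxic-EV and 1743 ± 38.9 CPM in normoxic-EV, with H2az1 higher and H1f0 and H3f3a lower within that sum. Replication-dependent genes therefore made up 3.81% ± 0.201 of histone counts in hypoxic-EV and 4.80% ± 0.180 in normoxic-EV, and 7.91% ± 0.540 of histone FPKM in hypoxic-EV and 9.79% ± 0.320 in normoxic-EV. With H2ax, whose mRNA carries the loop, counted among them, the log2 ratio of their summed CPM was -0.09 in place of -0.35.

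**Figure D5:**
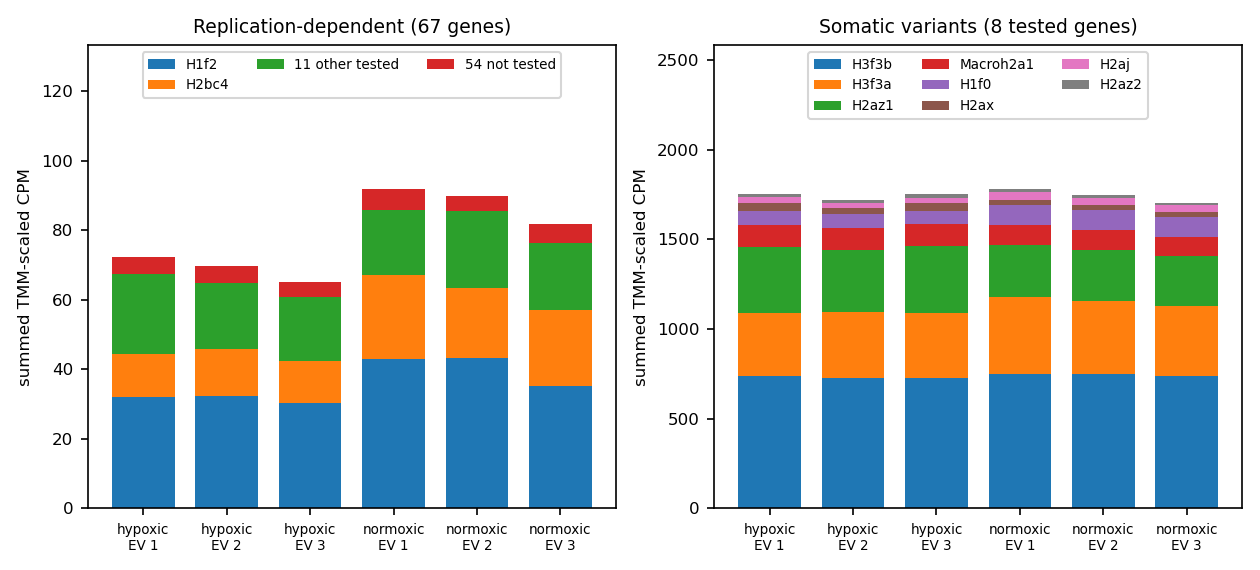
Summed TMM-scaled CPM (vertical axes, from 0) in each library, for the 67 replication-dependent genes (left panel, in 4 parts) and the 8 tested somatic variants (right panel, by gene), hypoxic-EV libraries left of normoxic-EV libraries. The left bars end at 65.0 to 72.3 CPM in hypoxic-EV and 82.0 to 91.9 CPM in normoxic-EV, and most of that gap lies in the H1f2 and H2bc4 parts, while the right bars end at like heights.

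Genes that act on histones and their mRNAs were read from lists drawn up for this comparison. Of 16 histone mRNA processing genes 8 were called, 7 higher and 1 lower in hypoxic-EV, with a median log2 fold change of 0.12. The total of 8 is near the 44.2% of all genes and the 47.5% of protein-coding genes that were called. By direction, 22.7% of all genes were called higher and 21.5% lower. Slbp, which encodes the protein that binds the stem-loop, had 84.9, 88.2 and 88.8 CPM in the hypoxic-EV libraries, against 82.8, 76.6 and 80.4 CPM in the normoxic-EV libraries. Its log2 fold change of 0.13 ± 0.051 passed by little (SE, edgeR adjusted p = 0.0471), and the call was lost in 8 of 10 alternatives, with adjusted p up to 0.236. Those included DESeq2, the other size factors, no filter and the fits without hypoxic-EV replicate 2 or 3 or without normoxic-EV replicate 2 or 3. Npat, the coactivator that switches on replication-dependent histone genes, was higher (log2 fold change 0.22 ± 0.051, SE, edgeR adjusted p = 0.00112). Casp8ap2, whose product FLASH acts in histone pre-mRNA cleavage, rose by 0.31 ± 0.062 on the log2 scale (SE, edgeR adjusted p = 0.000346), and Eri1, an exonuclease that trims histone mRNA ends, by 0.22 ± 0.048 (SE, edgeR adjusted p = 0.000903). Srrt, which encodes the RNA processing factor ARS2, was higher, the log2 fold change being 0.46 ± 0.050 (SE, edgeR adjusted p = 1.96e-07). Lsm10, a subunit of the U7 particle that guides the cleavage, was the 1 lower gene, with 11.98, 8.98 and 11.9 CPM in the hypoxic-EV libraries, against 15.4, 16.3 and 17.0 CPM in the normoxic-EV libraries (log2 fold change -0.57 ± 0.108, SE, edgeR adjusted p = 0.000194).

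Of 34 histone chaperone, import and exchange genes 21 were called, 20 higher and 1 lower, with a median log2 fold change of 0.24. Over all genes 44.2% were called, 22.7% higher and 21.5% lower, and the median was -0.0011. The list includes Cenpa, the centromeric H3, whose symbol lies outside the histone naming pattern. Cenpa had 61.5, 54.8 and 56.1 CPM in the hypoxic-EV libraries, against 22.3, 23.2 and 22.9 CPM in the normoxic-EV libraries. All hypoxic-EV libraries were over 2 times the level of any normoxic-EV library, and the log2 fold change was 1.33 ± 0.067 (SE, edgeR adjusted p = 1.48e-12). Hjurp, the chaperone of the Cenpa protein, rose, the log2 fold change being 0.68 ± 0.050 (SE, edgeR adjusted p = 6.4e-10). Chaf1a, the large subunit of the CAF-1 complex that places H3 and H4 on newly made DNA, rose by 0.75 ± 0.054 on the log2 scale (SE, edgeR adjusted p = 4.33e-10), and overlaps Ubxn6 on the opposite strand, whose counts came to 14.8% of its own. Daxx, a chaperone of H3.3, was the lower gene (log2 fold change -0.23 ± 0.061, SE, edgeR adjusted p = 0.00378).

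Since replication-dependent histone genes are S-phase genes, 16 other S-phase genes were read beside them. Of these 15 were called, 14 higher and 1 lower in hypoxic-EV, with a median log2 fold change of 0.32, against the same 22.7% higher and 21.5% lower over all genes. Their CPM summed to 2885, 2956 and 2983 in the hypoxic-EV libraries, against 2282, 2215 and 2299 in the normoxic-EV libraries. Rrm2, a subunit of ribonucleotide reductase, rose by 0.70 ± 0.046 on the log2 scale (SE, edgeR adjusted p = 9.06e-11). Mcm6 and Mcm7, subunits of the replicative helicase, rose on the log2 scale by 0.62 ± 0.049 for Mcm6 and by 0.57 ± 0.050 for Mcm7 (SE, edgeR adjusted p = 2.08e-09 for Mcm6 and 9.22e-09 for Mcm7). Mcm7 overlaps Cops6 on the opposite strand, whose counts came to 44.7% of its own. The S-phase sum was thus higher and the replication-dependent histone sum lower in hypoxic-EV, both without overlap between the groups. Without H1f2 and H2bc4 the histone sum was 24.7 ± 2.72 CPM in hypoxic-EV and 25.4 ± 1.08 CPM in normoxic-EV. That difference was smaller than the spread, but H1f2 and H2bc4, each called lower, were left out after the values were seen. The histone counts cover mainly transcripts with a poly(A) tail or an A-rich stretch. The part of the S-phase genes in the histone values was not tested.

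All 8 macrophage markers were tested, and 7 were called, 2 higher and 5 lower in hypoxic-EV. Calls over all genes came to 44.2%, with 22.7% higher and 21.5% lower. The extremes in each direction were picked after the values were seen. Csf1r rose most, with 352 ± 13.4 CPM in hypoxic-EV and 174 ± 6.93 CPM in normoxic-EV. Adgre1 fell most, with 96.8 ± 4.71 CPM in hypoxic-EV and 168 ± 4.05 CPM in normoxic-EV (SD, n = 3 each). Csf1r overlaps Hmgxb3 on the opposite strand, whose counts came to 20.7% of its own. The summed CPM of the 8 markers ran from 8424 to 8821 in hypoxic-EV and from 10388 to 10823 in normoxic-EV. Lyz2, the lysozyme gene, held most of that sum, with 6091 ± 176 CPM in hypoxic-EV and 7946 ± 208 CPM in normoxic-EV (SD, n = 3 each). Without it, a choice made after the values were seen, the sum ran from 2535 to 2620 CPM in hypoxic-EV and from 2682 to 2741 CPM in normoxic-EV. Their part in the histone values was not tested. The 12 tendon or stromal markers, which stand for the cells that shed the vesicles, held 164 counts over the 6 libraries, and none passed the filter. Their summed CPM ran from 0.99 to 1.59 in hypoxic-EV and from 1.14 to 2.39 in normoxic-EV, and Col1a2, Col3a1, Tnmd, Thy1 and Fmod were at 0 counts in every library.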

How the data were processed

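Per the labels' protocols, TruSeq libraries of poly(A)-enriched RNA were sequenced paired-end on an Illumina HiSeq. HISAT2, featureCounts, DESeq2 and build GRCm39 stand in the submitters' processing notes. No source used here gives their versions, the annotation, the strand setting or the multi-mapping treatment, which leaves reads of overlapping and near-identical genes uncertain. Per gene, the authors deposited raw counts and FPKM values, which equalled count over library total and a length fixed per gene. Their deposited normalized counts, a signal equal to count over 1 size factor per library, were used as a check. The authors' deposited comparison table gives log2 fold changes, a test statistic (a score, not used here), p-values and adjusted p-values. All per-sample columns were mapped.

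The 106 histone genes, classes and lists were chosen with earlier results of these data known. The whole count table was fitted with edgeR 4.0.16 in R 4.3.3 (filterByExpr with minimum count 10 and minimum total count 15, TMM, quasi-likelihood F-test, two-sided, Benjamini-Hochberg over 13303 genes), and a gene was called at an adjusted p under 0.05. The common biological coefficient of variation was 0.0489. CPM are TMM-scaled, and levels were compared between genes only in FPKM. Each SE is the log2 fold change, in size, over the square root of F. Sums and shares got no test. Named were all somatic variants, the tested replication-dependent H1 genes, the 5 tested genes of highest CPM per core family, the called genes of largest change, Slbp, Npat, Cenpa and the 3 called list genes of lowest p in each direction. The values of 1 such list gene are not reported here. Alternatives were DESeq2 1.42.0, RLE size factors, no filter, the replicate block, each library left out, H2ax as replication-dependent, and FPKM or library totals for sums. The procedure was tested on simulated data. Chi-square per degree of freedom between libraries of a group ran from 2.72 to 5.84, above counting noise, as library preparation alone can give. The labels list each library as a sample of its own, and it was counted so. Motifs and sequences were read with Python 3.11.15 from GENCODE M21 transcripts and RefSeq promoters.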

Additional observations from a re-analysis of the deposited data

How the results depend on the processing

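Histone calls kept their number within 1.5 times under each alternative run: 11 to 13 without 1 library each, against 12 with all, 11 with DESeq2 (which lost H2bc6) and 12 with the replicate block. Leaving out 1 library gave 4 to 6 replication-dependent calls, 7 to 7 variant calls, 6 to 9 mRNA processing calls, 20 to 21 chaperone calls and 4993 to 5778 calls over all genes. The log2 ratio of summed replication-dependent CPM ran from -0.40 to -0.31 and that of the somatic variants from -0.02 to 0.02 without 1 library each, and the share difference from -1.10 to -0.88 percentage points. With H2ax counted as replication-dependent, the log2 ratio of the replication-dependent sum was -0.091 and the share difference -0.33 points, since H2ax was higher in hypoxic-EV. In deposited FPKM the somatic variant log2 ratio was 0.035 and the share difference -1.88 points, in place of -0.99. Among 35 named genes and 349 alternatives, the call or its absence was kept in 334. A call was lost in 14 (H2bc6, H2bc8 and Slbp), gained in 1 (H4c8) and reversed in 0. Genes without a call did not all keep their direction. Without 1 library each, the log2 fold change ran from -0.37 to 0.21 for H1f3 and from -0.44 to 0.13 for H2bc23. It ran from -0.02 to 0.27 for H4c9 and from -0.29 to 0.23 for H4c12. Same-numbered libraries did not deviate together (correlations -0.0156, -0.0177 and -0.0175). With 3 libraries a group this cannot settle whether the numbers pair the samples. The replicate block gave 5662 calls over all genes, 5 replication-dependent, 7 variant, 7 mRNA processing and 21 chaperone calls. Depth limits the 54 replication-dependent genes below the filter, of which H2ac10 and H3c15 were called when no filter was used.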
